A study of Mus musculus with 16 samples.

Results

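The genes described here are 9 genes of vitamin A (retinoid) metabolism among the 20725 genes named on the arrays: Rbp4, Stra6, Adh1, Rdh10, Aldh1a1, Aldh1a2, Aldh1a3, Cyp26b1 and Rarb. They were chosen by their place in the pathway, and Adh1 was picked because it was higher in hyperoxia in these same samples. The values that chose Adh1 are therefore given as a description, with no test. All 9 genes had a feature on the array, and the brightest feature stood for each gene. Rarb had 3 features and every other member had 1.

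RNA of alveolar epithelial type II (AT2) cells, the surfactant-making cells of the alveolus, was measured on 16 single-colour Agilent arrays. All pups were 3 days old. There were 2 samples of Fgf10+/- pups in hyperoxia, 4 of Fgf10+/- pups in normoxia, 6 of wild-type pups in hyperoxia and 4 of wild-type pups in normoxia. Hyperoxia was 85% oxygen in a chamber from day 0 to day 3 after birth. Fgf10+/- pups carry 1 working copy of Fgf10, a growth factor that lung mesenchyme makes. The titles give these group sizes, whereas the series text gives 4 per group. How the cells were isolated, and how many pups gave each sample, was not given in the sources used here, so p-values measure the spread between these samples only. Values are log2 intensities, on which a difference of 1 is a 2-fold change.

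Retinol travels in blood bound to RBP4 and can enter cells through the receptor STRA6. Retinol dehydrogenases such as ADH1 and RDH10 oxidise it to retinal, and the ALDH1A enzymes oxidise retinal to retinoic acid. Retinoic acid acts through nuclear receptors such as RARB, and CYP26 enzymes break it down. In the lung, retinoic acid takes part in the budding of the embryonic lung and in the formation of alveoli.

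Sftpc, the surfactant protein C gene that marks AT2 cells, was at 15.95 to 15.98 on the 16 arrays, at the top of the scale, so it shows AT2 RNA in every sample but not how much. The mean of 12 AT2 markers ran from 10.32 to 11.67. The samples also held markers of other lung cells in varying amounts, and several of these varied with the retinoid genes. Means of the marker lists ran over 16 samples from 8.20 to 13.57 for club and secretory cells, 6.40 to 8.88 for ciliated cells, 6.05 to 9.03 for smooth muscle and pericytes, and 7.76 to 10.06 for fibroblasts. The highest smooth muscle and fibroblast means both belonged to wild-type normoxia replicate 1, which stood apart from the other 3 samples of its group, at 6.26 to 6.73 for smooth muscle. Thymocyte markers were highest in wild-type normoxia replicate 4 and Fgf10+/- normoxia replicates 1, 2 and 4, at 5.54 to 6.43, against 4.01 to 4.75 elsewhere. The Fgf10 feature lay between 4.02 and 5.89, around the median of gene means of 5.19, and so does not check the genotype labels. In bulk samples such as these, fewer cells of a type and less RNA per cell cannot be told apart.

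Adh1, which encodes a cytosolic alcohol dehydrogenase that oxidises retinol, was the member with the widest difference between oxygen conditions. Its level was 11.23 and 12.12 in the Fgf10+/- hyperoxia samples, against 9.28, 7.57, 7.44 and 6.69 in the Fgf10+/- normoxia samples. In wild type it ran from 9.59 to 12.65 with a median of 11.59 in the 6 hyperoxia samples, against 11.68, 8.49, 8.10 and 7.35 in the 4 normoxia samples. The Fgf10+/- groups did not overlap. The wild-type groups overlapped through 1 sample, normoxia replicate 1, while the other 3 normoxia samples lay below all 6 hyperoxia samples.

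Mean Adh1 was thus 11.68 ± 0.63 (SD, n = 2) in Fgf10+/- hyperoxia and 7.75 ± 1.09 (n = 4) in Fgf10+/- normoxia, a log2 difference of 3.93 (SE 0.98), or 15.2-fold. In wild type it was 11.36 ± 1.04 (n = 6) in hyperoxia and 8.90 ± 1.91 (n = 4) in normoxia, a log2 difference of 2.45 (SE 0.73), or 5.47-fold. Without wild-type normoxia replicate 1 the wild-type difference was 3.38. These differences are what Adh1 was chosen for and carry no test. The promoter sequence of Adh1 as RefSeq gives it (GRCm38.p6, 150 bases before the start, chr3:138277435-138277584, plus strand) is shown because Adh1 is the member with this difference.

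Adh1: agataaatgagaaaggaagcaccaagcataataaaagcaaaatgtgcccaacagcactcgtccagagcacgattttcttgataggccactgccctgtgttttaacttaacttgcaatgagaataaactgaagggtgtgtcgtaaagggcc

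**Figure D1:**
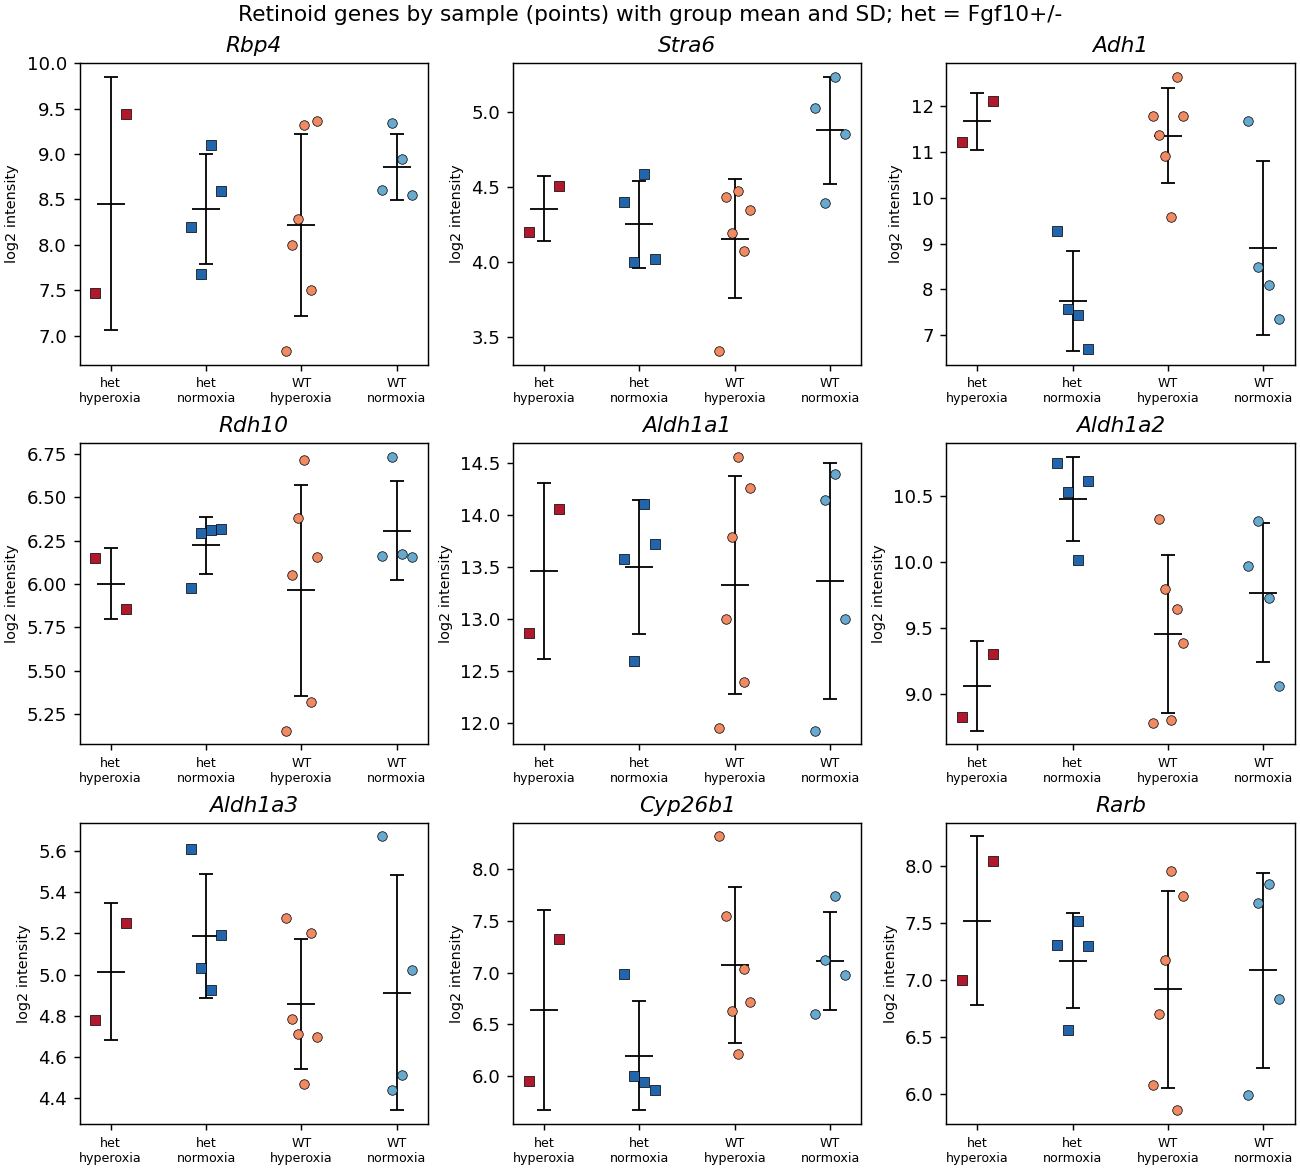
Log2 intensity of each of the 9 retinoid genes (1 panel per gene, each with its own scale that does not start at 0) in the 4 groups; points are samples and bars give the mean and SD (n = 2, 4, 6 and 4 from left to right). Adh1 is at 9.59 or above in all 8 hyperoxia samples, and 1 wild-type normoxia sample lies among them at 11.68.

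Between genotypes, Adh1 did not pass the test in either oxygen condition, and its interval was wide. In hyperoxia the Fgf10+/- minus wild-type difference was 0.32 (95% interval -1.63 to 2.27, limma with Benjamini-Hochberg adjusted p = 0.9996). In normoxia it was -1.16 (-2.85 to 0.53, adjusted p = 0.919 by limma), and without wild-type normoxia replicate 1 it was -0.23. The interaction, that is the hyperoxia difference in Fgf10+/- minus that in wild type, was 1.48 (-1.10 to 4.06, limma adjusted p = 0.9999). These comparisons use the samples in which Adh1 was chosen. The interaction is built from the hyperoxia differences Adh1 was chosen for, so its interval and p-value are a description.

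Adh1 levels followed mesenchymal genes from sample to sample. After each group's mean was subtracted, Adh1 correlated with the mean of 13 fibroblast and lipofibroblast markers (Pearson r = 0.91, permutation p = 0.00031, adjusted p = 0.00478; Spearman rho = 0.86, permutation p = 0.00085, adjusted p = 0.0131; 16 samples). With the mean of 10 smooth muscle and pericyte markers r was 0.90 (permutation p = 0.00088, adjusted p = 0.0118) and rho was 0.77 (permutation p = 0.00523, adjusted p = 0.0471). Without the 2 samples farthest from the median of Adh1, wild-type normoxia replicate 1 and Fgf10+/- normoxia replicate 1, these r values were 0.85 and 0.78. Erythroid markers also followed Adh1, with r = 0.82 (permutation p = 0.00027, adjusted p = 0.00478) and rho = 0.80 (permutation p = 0.00058, adjusted p = 0.0104), and with r = 0.80 without those 2 samples. Permutations shuffled samples within groups, were two-sided and numbered 100000, and p-values were adjusted over the 108 pairs of a member and a marker list.

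The genes most like Adh1 among 8006 other genes with a mean over 6 included members of these same lists, so they are no separate support. Over the levels of the 16 samples the nearest were Septin4 (r = 0.99), Ppp1r14a, which encodes an inhibitor of myosin phosphatase in smooth muscle (r = 0.99), and Mfap4 (r = 0.98). Mfap4, a protein of elastic fibres, is itself on the fibroblast list. Levels also hold the hyperoxia difference that Adh1 was chosen for. Over deviations from the group means the nearest were Septin4 and Ppp1r14a (both r = 0.97) and Acta2, smooth muscle actin, which is on the smooth muscle list (r = 0.97). Mfap4 was at 13.74 and 14.42 in Fgf10+/- hyperoxia against 9.17 to 12.33 in Fgf10+/- normoxia, and at 12.96 to 14.78 in wild-type hyperoxia against 10.36 to 14.73 in wild-type normoxia. Since Mfap4 was picked for its likeness to Adh1 over these samples, its group values are a description.

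The mesenchymal lists are given beside Adh1 by their counts and means. In Fgf10+/- pups 9 of 10 smooth muscle and pericyte markers were higher in hyperoxia, with list means of 7.38 and 7.39 against 6.05 to 6.82 in normoxia, and a median change of 1.11 against -0.04 over all genes. In wild type 10 of 10 were higher, with list means of 7.25 to 8.30 in hyperoxia against 6.26 to 9.03 in normoxia and a median change of 0.63 against -0.08 over all genes. Of 13 fibroblast markers 7 were higher in Fgf10+/- (list means 8.53 to 9.07 against 8.09 to 8.61) and 10 in wild type (8.43 to 9.43 against 7.76 to 10.06). The list means of the oxygen groups overlapped, except those of smooth muscle and pericyte markers in Fgf10+/-. No marker of either list passed the test in either genotype. Of 10 endothelial markers, 9 were higher with hyperoxia in each genotype. In Fgf10+/- 1 of them passed the test, as did 2.45% of all genes. Their list means were 7.004 and 8.45 in Fgf10+/- hyperoxia against 6.59 to 7.04 in Fgf10+/- normoxia. In wild type they were 7.26 to 8.46 in hyperoxia against 7.31 to 7.77 in normoxia. Their correlation with Adh1 did not pass (r = 0.40, permutation p = 0.0563, adjusted p = 0.217). Of 5 measured erythroid markers, 5 were higher with hyperoxia in Fgf10+/- and 4 in wild type, none past the test. Their list means overlapped between the oxygen groups in both genotypes. With the mean of the fibroblast and smooth muscle lists as a covariate, the Adh1 difference was 2.47 in Fgf10+/- and 1.41 in wild type.

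**Figure D2:**
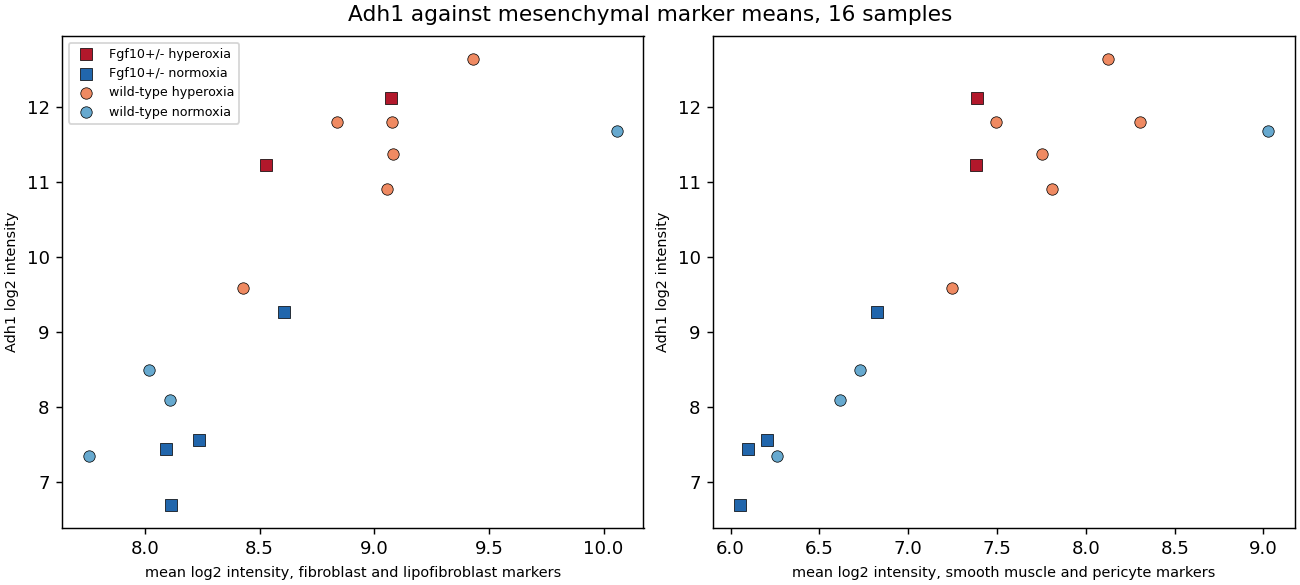
Adh1 log2 intensity (vertical) against the mean log2 intensity of fibroblast markers (left) and of smooth muscle and pericyte markers (right), 1 point per sample, by group. Samples with higher marker means tend to have higher Adh1, and wild-type normoxia replicate 1 holds the highest marker means (10.06 and 9.03) with Adh1 at 11.68.

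None of the other 8 members passed the test in any of the 5 comparisons by limma with Benjamini-Hochberg adjustment over all genes. With hyperoxia in Fgf10+/-, 0 of 8 were called, where 2.45% of all genes were, and 1 had an unadjusted p under 0.05 (Aldh1a2), as did 16.7% of all genes. With hyperoxia in wild type, 0 of 8 were called against 3.13% of all genes, and 1 had an unadjusted p under 0.05 (Stra6), against 18.2%. For Fgf10+/- against wild type in hyperoxia 0% of all genes were called, and 0 of 8 members had an unadjusted p under 0.05, against 4.37%. In normoxia 0.00965% were called, and 3 of 8 had an unadjusted p under 0.05 (Stra6, Aldh1a2 and Cyp26b1), against 6.03%. For the interaction 0.00965% were called, and 2 of 8 had one (Stra6 and Aldh1a2), against 4.11%. In Fgf10+/- the hyperoxia and normoxia samples did not overlap for 1 of these 8 (Aldh1a2, lower), against 25.9% of all genes. Adh1 did not overlap there either, but it was chosen for that difference and is not counted. In wild type the oxygen groups overlapped for all 8, where 7.16% of all genes did not overlap. The genotypes overlapped for all 9 members in hyperoxia (6.99% of all genes did not overlap) and in normoxia (3.46%).

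**Figure D3:**
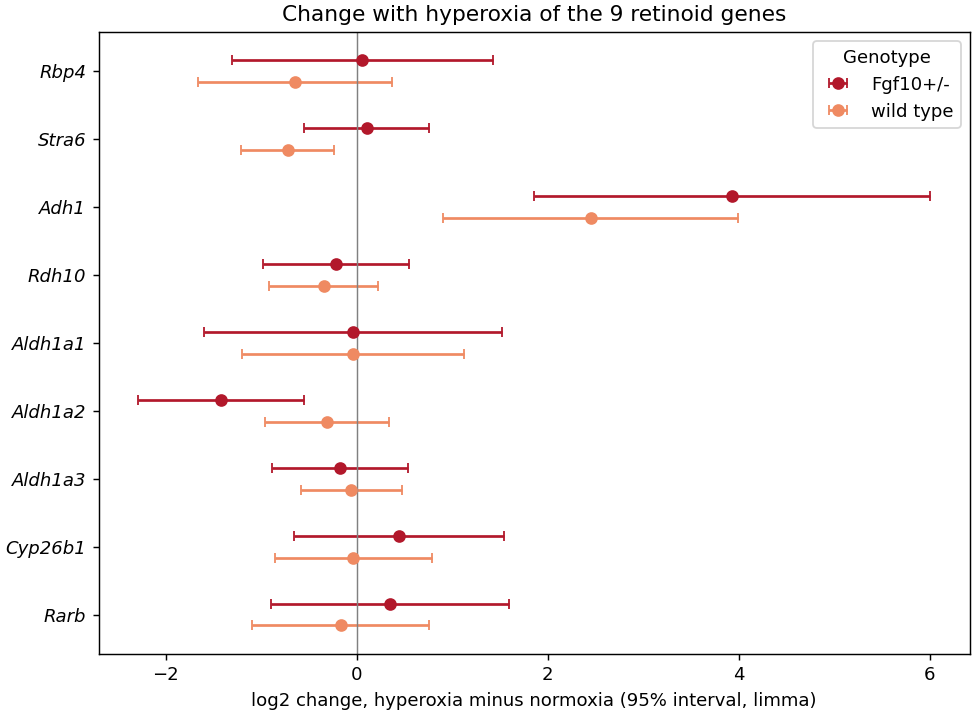
Log2 difference of hyperoxia minus normoxia (horizontal, with the 95% interval from limma) for each of the 9 genes in Fgf10+/- (upper mark of each pair) and wild type (lower mark). Adh1 lies apart at 3.93 and 2.45, the differences it was chosen for, so its intervals are a description and no test. Of the others, Aldh1a2 in Fgf10+/- (-1.42) and Stra6 in wild type (-0.72) have intervals that leave out 0, and neither passed the adjusted test.

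Rbp4, the carrier of retinol in blood, was at 7.47 and 9.44 in Fgf10+/- hyperoxia, against 8.20, 7.68, 9.10 and 8.60 in Fgf10+/- normoxia. The wild-type samples ran from 6.83 to 9.36 with a median of 8.14 in hyperoxia, against 8.61, 9.34, 8.95 and 8.55 in normoxia. The groups overlapped, and the hyperoxia samples were the more spread. The hyperoxia difference was 0.06 in Fgf10+/- (95% interval -1.30 to 1.42) and -0.65 in wild type (-1.66 to 0.37, limma adjusted p = 0.517).

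Stra6, the retinol receptor, was dim, with a mean of 4.39 over 16 samples, below the median of gene means. It was at 4.20 and 4.51 in Fgf10+/- hyperoxia against 4.40, 4.00, 4.59 and 4.02 in Fgf10+/- normoxia. In wild type it ran from 3.41 to 4.48 with a median of 4.27 in hyperoxia, against 5.03, 4.40, 5.23 and 4.85 in normoxia. Of the 4 wild-type normoxia samples, 3 lay above every other sample of the series, and replicate 2 lay within the range of wild-type hyperoxia. The difference was 0.11 (95% interval -0.55 to 0.76) in Fgf10+/- and -0.72 (-1.21 to -0.24, limma adjusted p = 0.103) in wild type, and Fgf10+/- minus wild type in normoxia was -0.63 (limma adjusted p = 0.762). At this brightness a difference may understate a change of the RNA.

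Rdh10, the retinol dehydrogenase required for retinoic acid synthesis in the mouse embryo, differed little between groups. It was at 6.15 and 5.86 in Fgf10+/- hyperoxia against 5.98, 6.29, 6.31 and 6.31 in Fgf10+/- normoxia, and at 5.15 to 6.72 with a median of 6.10 in wild-type hyperoxia against 6.16, 6.74, 6.17 and 6.16 in wild-type normoxia. The differences were -0.22 (95% interval -0.99 to 0.54) in Fgf10+/- and -0.34 (-0.91 to 0.22) in wild type.

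Aldh1a2, the main retinal dehydrogenase of the early mouse embryo, was lower in both Fgf10+/- hyperoxia samples than in any Fgf10+/- normoxia sample. It was at 8.83 and 9.30 in Fgf10+/- hyperoxia, against 10.75, 10.54, 10.02 and 10.62 in Fgf10+/- normoxia. The wild-type samples ran from 8.78 to 10.33 with a median of 9.52 in hyperoxia, against 9.97, 10.31, 9.73 and 9.06 in normoxia, and these groups overlapped. The difference was -1.42 in Fgf10+/- (SE 0.41, 95% interval -2.28 to -0.55, limma adjusted p = 0.0825) and -0.31 in wild type (-0.96 to 0.34, limma adjusted p = 0.647). Between genotypes it was 0.71 in normoxia (0.00 to 1.42, limma adjusted p = 0.820) and -0.40 in hyperoxia (-1.21 to 0.42). The interaction was -1.11 (-2.19 to -0.02, limma adjusted p = 0.9999). Without the 4 samples highest in thymocyte markers, which leaves 1 Fgf10+/- normoxia sample, the Fgf10+/- difference was -0.95.

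Aldh1a2 varied with mesothelial genes, those of the cells that cover the lung surface. Its deviations from the group means correlated with the mean of 8 mesothelial markers (Pearson r = 0.82, permutation p = 0.00098, adjusted p = 0.0118; Spearman rho = 0.78, permutation p = 0.00307, adjusted p = 0.0301; 16 samples), and r was 0.74 without wild-type normoxia replicate 4 and wild-type hyperoxia replicate 2. Its nearest genes over levels were Cldn15, a claudin (r = 0.94), Rarres2, which encodes the chemoattractant chemerin (r = 0.93), and Rspo1, an enhancer of Wnt signalling (r = 0.91). Over deviations they were Cpz, a carboxypeptidase (r = 0.90), Cldn15 (r = 0.90) and Rarres2 (r = 0.90). The mesothelial list mean was 8.27 and 8.95 in Fgf10+/- hyperoxia against 9.49 to 10.09 in Fgf10+/- normoxia, and 8.23 to 9.36 in wild-type hyperoxia against 8.65 to 9.50 in wild-type normoxia. All 8 mesothelial markers were lower in Fgf10+/- hyperoxia, and 1 of them passed the test, as did 2.45% of all genes. The part of these markers in the Aldh1a2 difference was not tested.

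Aldh1a1, a retinal dehydrogenase of adult tissues, was bright in every sample and had no consistent difference by oxygen or genotype. It was at 12.86 and 14.06 in Fgf10+/- hyperoxia, against 13.58, 12.60, 14.10 and 13.72 in Fgf10+/- normoxia. In wild type it ran from 11.96 to 14.56 with a median of 13.40 in hyperoxia, against 11.93, 14.14, 14.39 and 13.00 in normoxia. The spread within a group was widest in the wild-type samples, and the groups overlapped throughout. The difference was -0.04 in Fgf10+/- (95% interval -1.60 to 1.52) and -0.04 in wild type (-1.20 to 1.12), so that changes of up to about 2-fold in wild type lay within the interval.

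Rarb, the retinoic acid receptor beta gene, was at 6.997 and 8.04 in Fgf10+/- hyperoxia, against 7.30, 6.56, 7.51 and 7.30 in Fgf10+/- normoxia. The wild-type samples ran from 5.86 to 7.95 with a median of 6.94 in hyperoxia, against 5.99, 7.67, 7.84 and 6.84 in normoxia. The difference was 0.35 in Fgf10+/- (95% interval -0.89 to 1.59) and -0.17 in wild type (-1.09 to 0.76). The other Rarb features were dimmer, with means of 5.07 and 4.08 over 16 samples, against 7.10 for the first. Their changes with hyperoxia were -0.35 and 0.11 in Fgf10+/-, and -0.24 and 0.40 in wild type, so the 3 features did not share a direction in either genotype.

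Rarb is known as a gene that retinoic acid itself induces, through a response element in its promoter. The promoters of Rarb and of Aldh1a1 are shown side by side because the 2 genes varied together. Each line gives the 150 bases before a RefSeq start (GRCm38.p6), for Rarb chr14:16575477-16575626 on the minus strand and for Aldh1a1 the downstream of its 2 starts, chr19:20601818-20601967 on the plus strand. Capitals mark the direct repeat of 2 hexamers, separated by 5 bases, in Rarb.

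Rarb: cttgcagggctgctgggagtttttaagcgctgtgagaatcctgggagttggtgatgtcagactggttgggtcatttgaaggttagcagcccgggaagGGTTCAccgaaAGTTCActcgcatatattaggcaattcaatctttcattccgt
Aldh1a1: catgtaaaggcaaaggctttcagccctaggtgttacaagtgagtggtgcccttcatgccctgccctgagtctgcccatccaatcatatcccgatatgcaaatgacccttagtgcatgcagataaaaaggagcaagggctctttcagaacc

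The letters searched were GTTCA followed by GTTCA after any 6 bases, on both strands, in windows of 250 bases before to 50 after each start. They were found in 25 of 32851 RefSeq windows (0.0761%) and in 1 of the 12 windows of the 7 members that had one, that of Rarb, where the repeat spans bases -53 to -37 from the start. The search overlaps the single hexamers GGTTCA and AGTTCA, found in 10.4% and 14.0% of windows. A match is a description of the letters. Both hexamers of the Rarb repeat share the letters searched, so the match in Rarb is no finding. Repeats of other hexamers or with other spacings were not searched, so no match does not show that a response element is absent. The repeat was not found in the windows of Rbp4, Stra6, Adh1, Aldh1a1, Aldh1a2 and Cyp26b1, and 1 window of Stra6 held the single hexamer AGTTCA.

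The deviations of Aldh1a1 and Rarb from their group means correlated at r = 0.98 (permutation p = 1e-05, the smallest that 100000 permutations can give, adjusted p = 0.00036; Spearman rho = 0.99, permutation p = 1e-05, adjusted p = 0.00036; 16 samples). Without the 2 samples farthest in Aldh1a1, wild-type normoxia replicate 1 and wild-type hyperoxia replicate 1, r was 0.98. The second Rarb feature followed Aldh1a1 at r = 0.74 and the dimmest at r = 0.27, given as a description. Rbp4 followed both, with r = 0.85 for Aldh1a1 (permutation p = 6e-05, adjusted p = 0.00108; rho = 0.88, permutation p = 7e-05, adjusted p = 0.00126) and r = 0.85 for Rarb (permutation p = 0.00027, adjusted p = 0.00243; rho = 0.88, permutation p = 0.00017, adjusted p = 0.00204). Without wild-type hyperoxia replicates 1 and 6 these r values were 0.80 and 0.81. Of the 36 pairs of members, 5 passed by r and 4 by rho.

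Within groups, the same 3 genes followed markers of airway cells. The ciliated list mean correlated with Aldh1a1 (r = 0.97, permutation p = 1e-05, adjusted p = 0.00054; rho = 0.98, permutation p = 1e-05, adjusted p = 0.00054), and with Rarb (r = 0.97, permutation p = 1e-05, adjusted p = 0.00054; rho = 0.98, permutation p = 1e-05, adjusted p = 0.00054). Without the 2 samples farthest in each gene, both r values were above 0.95, at 0.953 for Aldh1a1 and 0.956 for Rarb. For Rbp4 it was 0.83 (permutation p = 0.00026, adjusted p = 0.00478; rho = 0.89, permutation p = 6e-05, adjusted p = 0.00216), and 0.78 without its 2 farthest samples. The club and secretory list mean correlated with Aldh1a1 at 0.88, Rarb at 0.91 and Rbp4 at 0.83 (permutation p = 0.00016, 0.00014 and 0.0017; adjusted p = 0.00432, 0.00432 and 0.0184). Spearman's rho was 0.87, 0.88 and 0.80 there (permutation p = 0.00045, 0.00058 and 0.00291; adjusted p = 0.0104, 0.0104 and 0.0301), and r without the 2 farthest samples was 0.84, 0.87 and 0.76. The AT2 list mean passed with no member, with r between -0.44 and 0.45. That list holds Sftpc, at the top of the scale, and its mean ran only from 10.32 to 11.67, so a relation with AT2 content may be missed. All 7 club and secretory markers were lower in hyperoxia in both genotypes, with list means of 9.22 and 11.28 in Fgf10+/- hyperoxia against 12.49 to 13.57 in Fgf10+/- normoxia, and 8.20 to 13.14 in wild-type hyperoxia against 10.55 to 13.19 in wild-type normoxia, and none of them passed the test. Of 7 ciliated markers, 0 were higher with hyperoxia in wild type and 1 in Fgf10+/-, with median changes of -0.58 and -0.71, and none passed. Aldh1a1 changed by -0.04 in each genotype, and Rarb by -0.17 in wild type and 0.35 in Fgf10+/-. The correlations above hold within groups and do not cover these differences between oxygen conditions.

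**Figure D4:**
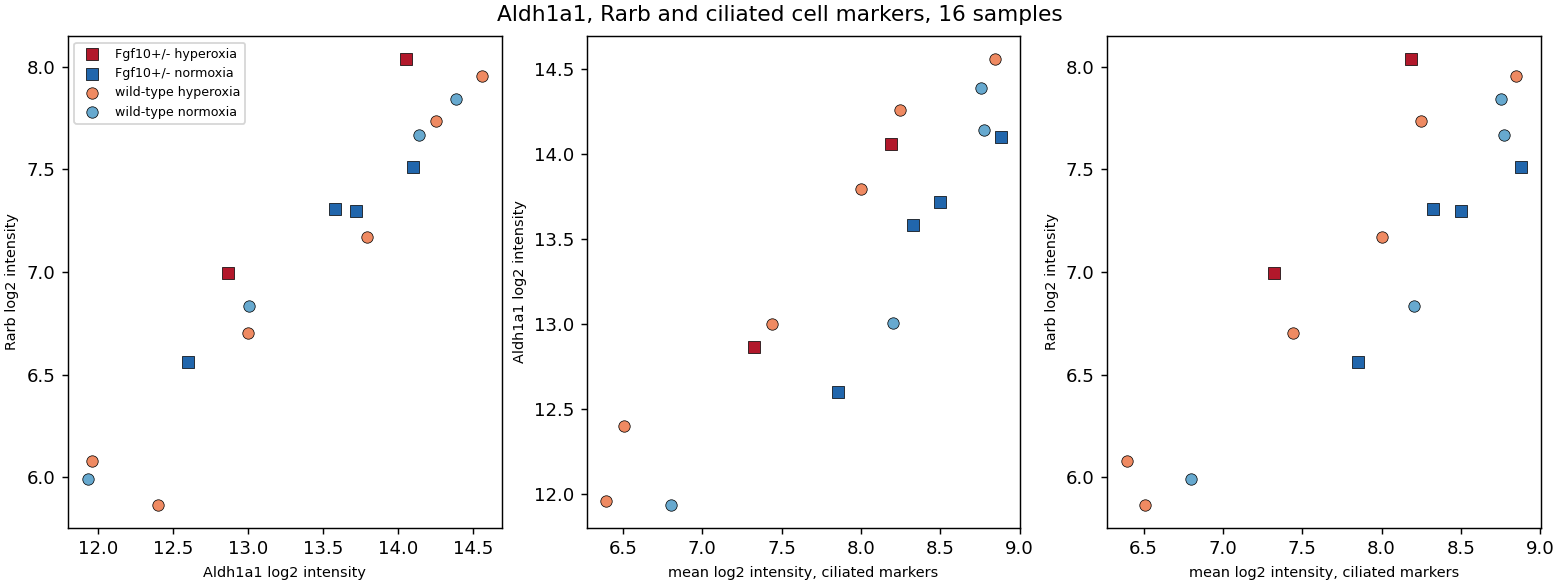
Rarb against Aldh1a1 (left), and Aldh1a1 (middle) and Rarb (right) against the mean of ciliated cell markers, all as log2 intensity with 1 point per sample, by group. In all panels the samples run along a rising line, and wild-type hyperoxia covers 11.96 to 14.56 in Aldh1a1 and 5.86 to 7.95 in Rarb. In the left panel both Fgf10+/- hyperoxia samples lie slightly above samples of a like Aldh1a1, with Rarb at 6.997 and 8.04, and the other groups mix. In the middle and right panels, hyperoxia samples tend to lie above normoxia samples of a like ciliated mean. For example, wild-type hyperoxia replicate 6 (ciliated mean 8.25) had Aldh1a1 at 14.26 and Rarb at 7.74. Wild-type normoxia replicate 4 (8.20) had 13.00 and 6.84. These offsets were not tested.

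The nearest genes were found in the same samples as these correlations, so they are no separate support. Those nearest Aldh1a1 over deviations were Cyp2s1, a cytochrome P450 for which retinoic acid is a known substrate (r = 0.99), Lrrc23, a protein of the radial spokes of cilia (r = 0.99), and Elapor1 (r = 0.99). Over levels they were Cfap45, a protein of ciliary microtubules (r = 0.97), Gsto1, a glutathione transferase (r = 0.97), and Selenbp1 (r = 0.97). Those nearest Rarb over deviations were Tekt1, a tektin of cilia that is itself on the ciliated list (r = 0.98), Aldh1a1 (r = 0.98) and Elapor1 (r = 0.98), and over levels Nrg1, the growth factor neuregulin (r = 0.96), Selenbp1 (r = 0.96) and Aldh1a1 (r = 0.96). Those nearest Rbp4 were Cldn10, a claudin (r = 0.93 over levels and 0.94 over deviations), and Slc16a11 (r = 0.93 and 0.94), with Calml4 (r = 0.93 over levels) and Appl2 (r = 0.94 over deviations).

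**Figure D5:**
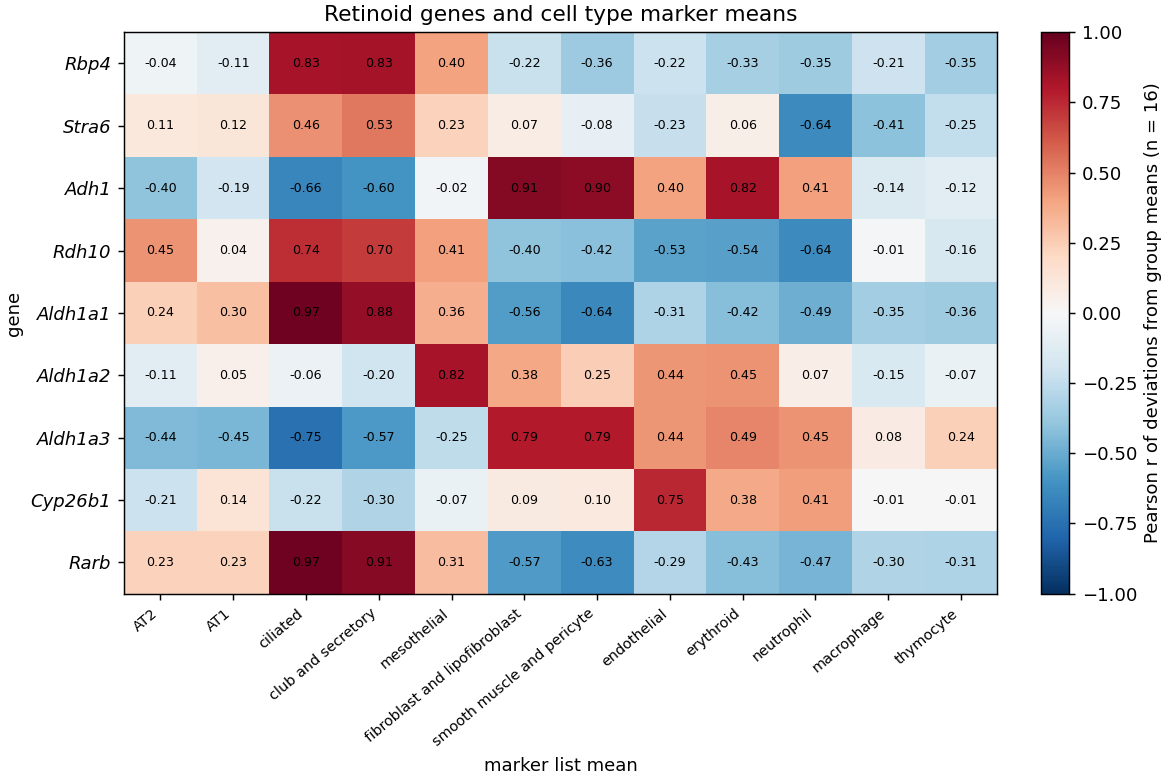
Pearson r between the deviations of each retinoid gene (rows) and of each marker list mean (columns) from their group means, over 16 samples; red is positive and blue negative. Adh1 has 0.91 with fibroblast and 0.90 with smooth muscle markers, Aldh1a1 and Rarb have 0.97 with ciliated markers, and Aldh1a2 has 0.82 with mesothelial markers.

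Aldh1a3, the third retinal dehydrogenase, was dim, with a mean of 4.97 over 16 samples. It was at 4.78 and 5.25 in Fgf10+/- hyperoxia, against 5.61, 5.03, 4.92 and 5.19 in Fgf10+/- normoxia, and at 4.47 to 5.27 with a median of 4.75 in wild-type hyperoxia, against 5.67, 4.44, 4.51 and 5.02 in wild-type normoxia. The highest sample of each normoxia group was replicate 1. The difference was -0.17 (95% interval -0.89 to 0.54) in Fgf10+/- and -0.06 (-0.59 to 0.47) in wild type. Its deviations followed those of Adh1 (r = 0.77, permutation p = 0.00616, adjusted p = 0.0444; rho = 0.63, permutation p = 0.0227, adjusted p = 0.102), and r was 0.54 without both of those replicates, so the relation rests largely on them.

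Cyp26b1, which encodes a hydroxylase that clears retinoic acid, was at 5.96 and 7.32 in Fgf10+/- hyperoxia, against 6.98, 6.00, 5.94 and 5.86 in Fgf10+/- normoxia. In wild type it ran from 6.21 to 8.32 with a median of 6.87 in hyperoxia, against 6.60, 7.12, 7.74 and 6.98 in normoxia. Of the 4 Fgf10+/- normoxia samples, 3 lay below all wild-type normoxia samples, and replicate 1 lay among them. Fgf10+/- minus wild type was -0.91 in normoxia (95% interval -1.81 to -0.01, limma adjusted p = 0.820) and -0.43 in hyperoxia (-1.47 to 0.60). The hyperoxia difference was 0.44 (-0.66 to 1.54) in Fgf10+/- and -0.03 (-0.85 to 0.79) in wild type. Endothelial markers varied with it (r = 0.75, permutation p = 0.0115, adjusted p = 0.0831; rho = 0.79, permutation p = 0.00879, adjusted p = 0.0678), which did not pass the adjustment.

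Beyond these 9 genes, 65 of 69 listed genes of retinoid transport, oxidation, clearance, reception and response were measured, and 0 passed the test in any of the 5 comparisons by limma, against 2.45% of all genes with hyperoxia in Fgf10+/-, 3.13% with hyperoxia in wild type and at most 0.00965% in the others. With hyperoxia in Fgf10+/-, 39 of 65 had a positive change and 13 an unadjusted p under 0.05 (16.7% of all genes had one), with a median of 0.09 against -0.04 over all genes. In wild type 32 of 65 had a positive change and 8 an unadjusted p under 0.05 (18.2% of all genes), with a median of 0.00 against -0.08. For genotype the counts at an unadjusted p under 0.05 were 1 in hyperoxia (4.37% of all genes) and 4 in normoxia (6.03%), and for the interaction 2 (4.11%). Among them the 17 measured genes known to be induced by retinoic acid had a median change of 0.57 in Fgf10+/- (13 positive) and 0.28 in wild type (10 positive), against -0.04 and -0.08 over all genes. These were the highest medians of the pathway lists. The other lists had medians of -0.35 to 0.12 in Fgf10+/- and -0.18 to 0.14 in wild type. In normoxia 3 of the 17 were higher in Fgf10+/- than in wild type, with a median difference of -0.31. The mean of the 17 genes was 6.78 and 7.24 in Fgf10+/- hyperoxia against 6.35 to 6.64 in Fgf10+/- normoxia. In wild type it was 6.53 to 7.19 in hyperoxia against 6.46 to 7.46 in normoxia. The highest, 7.46, was in wild-type normoxia replicate 1, which also had the highest fibroblast and smooth muscle means. Whether these changes reflect retinoic acid was not tested.

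Of the brightest listed genes, none passed the test with hyperoxia. Dhrs3, a retinal reductase that retinoic acid induces, was at 10.96 ± 0.10 (SD, n = 2) in Fgf10+/- hyperoxia and 10.36 ± 0.29 (n = 4) in Fgf10+/- normoxia, and at 10.96 ± 0.28 (n = 6) in wild-type hyperoxia and 10.70 ± 0.40 (n = 4) in wild-type normoxia. Aox1, an aldehyde oxidase, had changes of 1.46 in Fgf10+/- and 0.99 in wild type (limma adjusted p = 0.164 and 0.184), and Akr1b8, an aldo-keto reductase, 1.07 and 0.77 (0.298 and 0.294 by limma). Lpl, the lipoprotein lipase, had 0.97 and 0.74 (limma adjusted p = 0.179 and 0.147), and Fabp5, a fatty acid and retinoic acid binding protein, -0.58 and -0.33. The nuclear receptors Rara and Rxrb had 0.04 and -0.28 in Fgf10+/-, and -0.07 and -0.35 in wild type. Rarres2 had -0.96 in Fgf10+/- and -0.02 in wild type, and Rai14 0.57 and 0.28. Cyp2s1, Aldh1a7, a close relative of Aldh1a1, and the dim Cyp26c1 had -0.56, -0.02 and 0.55 in Fgf10+/-, and -0.52, -0.49 and -0.27 in wild type.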

How the data were processed

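Expression was measured on 16 arrays labelled with Cy3. The deposited values are log2 intensities that the authors had normalized to a shared distribution, as inferred from the values (largest gap between sorted arrays 0.20). Neither software nor background correction nor the base of the logarithm was given by the labels or headers used, and the values were read as log2 from their range. Flags for dim spots, slides and scans were not used here. Of 62976 features, 65 with a missing value were left out. Of all features, 31465 had 1 gene symbol, updated through RefSeq tables (GRCm38.p6). The other 31511 had none or several, which were not counted apart. This left 20725 genes with the brightest feature each.

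Group means were fitted with limma 3.58.1 in R 4.3.3 on all 16 samples, and p-values were adjusted (Benjamini-Hochberg) over 20725 genes at a threshold of 0.05. The fit was tried on simulated data with independent noise for each gene. Those data lack variation shared between genes, such as that of the marker lists here, so the trial does not cover it. Members and lists were chosen with earlier results of these data known. Besides the members, the text names the 2 brightest genes of each pathway list, where none was called, and the 3 genes nearest each member with a mean over 6. Marker genes named for the cell type or the mesenchymal comparison were chosen after their values were seen. Correlations use deviations from group means. The number of arrays limits the precision.

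Alternatives were median centring, the mean of all features, a filter at a mean of 6, another variance prior, fits of the compared groups alone, each sample left out, a replicate block, and changes for thymocyte or mesenchymal markers.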

Additional observations from a re-analysis of the deposited data

Results flagged for a closer look

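In groups of 4 to 6 samples, 3 of 27 combinations of a gene and a group held a sample far from the others, and chance gives about 1 in 20. Rdh10 was 6.74 in wild-type normoxia replicate 2, against 6.16 to 6.17 in the other 3 samples. Rdh10 was also 5.98 in Fgf10+/- normoxia replicate 1, against 6.29 to 6.31 in the others. Cyp26b1 was 6.98 in Fgf10+/- normoxia replicate 1, against 5.86 to 6.00 in the others, and without that sample the Fgf10+/- minus wild-type difference in normoxia was -1.17. No interaction of genotype and hyperoxia passed the test for any member.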

How the results depend on the processing

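The counts of members past the threshold were 0 for both genotype comparisons and the interaction in every alternative tried. The others depended on Adh1, which was chosen for its difference and so gives no support, and in 1 setting on Aldh1a2. With hyperoxia in Fgf10+/- the count was 1 of 9. It was 2 with only genes of a mean over 6, where Aldh1a2 also passed (limma adjusted p = 0.0374, against 0.0537 to 0.648 in its other alternatives). That filter tests fewer genes, yet calls over all genes went from 507 to 792 in Fgf10+/- and from 649 to 1172 in wild type. The share of genes called thus rose as well. The count of members in Fgf10+/- was 0 with the mean of all features, with the trended robust prior, with the thymocyte covariate, and without the 4 samples highest in thymocyte markers. Leaving out 1 sample gave 0 to 1, with 10 of the 16 fits at 0, among them those without either Fgf10+/- hyperoxia sample. With hyperoxia in wild type the count was 0 of 9, and 1 with only genes of a mean over 6, or with the fibroblast and smooth muscle covariate. Leaving out 1 sample gave 0 to 1 there, with 1 without wild-type normoxia replicate 1 and without wild-type hyperoxia replicate 4. The Adh1 difference ranged from 2.47 to 4.44 in Fgf10+/- and from 1.41 to 3.38 in wild type, with the lowest values under that covariate. The cause of these moves was not tested. The Aldh1a2 difference in Fgf10+/- ranged from -1.66 to -0.95.

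With a replicate block the count in Fgf10+/- was 0 and the Adh1 differences were 3.09 in Fgf10+/- and 2.02 in wild type. Samples share only a number: of 18 pairs with the same number, 4 correlated above 0.1 in their deviations (-0.16 to 0.24). The block changed no other call of a member.

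Over all genes the calls numbered 507 with hyperoxia in Fgf10+/- and 649 in wild type. They were 103 and 216 with the block, 14 and 278 without the 4 thymocyte-high samples, 115 and 423 with the thymocyte covariate, 792 and 1172 with only genes of a mean over 6, and 692 and 1000 with the trended robust prior. In Fgf10+/- they were 332 with the mean of all features, 262 with the mesenchymal covariate and 261 with only the compared groups, and leaving out 1 sample gave 90 to 567, and 323 to 698 in wild type. Over all alternatives they ran from 0 to 10 for genotype in normoxia, 0 to 4 for genotype in hyperoxia and 0 to 3 for the interaction. Median centring moved the median change in wild type from -0.08 to 0.03, and gave 270 higher and 167 lower genes in Fgf10+/- (against 245 and 262) and 509 and 161 in wild type (against 367 and 282).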

Other observations

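The genes nearest Rdh10 over deviations from the group means were Pdk3, a pyruvate dehydrogenase kinase (r = 0.92), Prkag2, a subunit of AMP-activated kinase (r = 0.91), and Aldoa, the glycolytic aldolase (r = 0.91). Over levels they were Spag6l, a gene of motile cilia (r = 0.91), Plxnb1 (r = 0.91) and Aldoa (r = 0.91). Rdh10 also varied with the ciliated list mean, which did not pass the adjustment over 108 pairs (r = 0.74, permutation p = 0.0133, adjusted p = 0.0833; rho = 0.64, permutation p = 0.0297, adjusted p = 0.178), and r was 0.56 without wild-type hyperoxia replicates 1 and 5. Those nearest Cyp26b1 over deviations were the dynein heavy chain Dync1h1 (r = 0.91), Zfp592 (r = 0.90) and Safb (r = 0.88), and over levels Tspan18 (r = 0.87), Prcp (r = 0.86) and Stmn2 (r = 0.86).

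Rdh10 and Aldh1a3 moved in opposite directions from sample to sample within groups (Pearson r = -0.70, permutation p = 0.00012, adjusted p = 0.00144; Spearman rho = -0.74, permutation p = 0.00135, adjusted p = 0.0121; 16 samples), and r was -0.64 without wild-type hyperoxia replicates 1 and 5. Aldh1a3 correlated negatively with ciliated markers (r = -0.75, permutation p = 0.0039, adjusted p = 0.0383; rho = -0.72, permutation p = 0.00641, adjusted p = 0.0532), and r was -0.71 without its 2 farthest samples. It correlated positively with fibroblast markers (r = 0.79, permutation p = 0.00431, adjusted p = 0.0388; rho = 0.77, permutation p = 0.00215, adjusted p = 0.029), and r was 0.61 without those 2. With smooth muscle markers r was 0.79 (permutation p = 0.00496, adjusted p = 0.0412; rho = 0.74, permutation p = 0.00294, adjusted p = 0.0301), and 0.59 without them. Its feature was dim, so these values describe a narrow range of intensities.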
